A study of Mus musculus with 6 samples.

Results

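Retinoic acid is made from vitamin A in successive oxidation steps, carried in the cytosol by small binding proteins and read by nuclear receptors, and 9 genes of this route were followed in the neonatal mouse retina. They were the retinaldehyde dehydrogenases Aldh1a1 and Aldh1a3, the cellular retinoic acid binding proteins Crabp1 and Crabp2, the retinoic acid receptors Rara, Rarb and Rarg, and the retinoid X receptors Rxra and Rxrb. The genes were chosen by name, and every probe set whose symbol was one of them was taken, which gave 13 probe sets for 9 genes among 22690 probe sets, 12394 genes having a probe set of their own. Rarg and Rxra had 2 probe sets each, Aldh1a3 had 3, and the other 6 genes had 1 each.

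Total RNA came from dissected retinas at postnatal day 4 and was hybridised to Affymetrix mouse expression arrays, 1 array for each retinal sample. There were 3 wildtype arrays and 3 Nhlh2 knockout arrays, and the labels place all of them on a mixed C57/129 background. Each knockout sample was paired with a wildtype littermate, so that arrays of the same number form pair 1, pair 2 and pair 3. The labels state no Cre, promoter, tissue restriction or treatment, and no probe set is named Nhlh2 in the probe table used, so the deletion was not checked on the arrays.

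Retinaldehyde dehydrogenases carry out the last, irreversible step that turns retinaldehyde into retinoic acid. In the embryonic eye Aldh1a1 is known as the enzyme of the dorsal retina and Aldh1a3 as that of the ventral retina. CRABP1 and CRABP2 bind retinoic acid in the cytosol, CRABP2 being known to hand it to the receptors. A retinoic acid receptor binds DNA as a pair with a retinoid X receptor, and the element it binds is a direct repeat of a short half-site. Rarb and Cyp26a1, which encodes an enzyme that breaks retinoic acid down, are textbook targets of this pathway and are therefore often used to read it out.

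The best known element, DR5, is a direct repeat with a fixed gap between its half-sites, and it was searched by name on both strands in the RefSeq promoter windows of build GRCm38.p6, which reach from 250 bases before to 50 bases after each gene start. Of 32851 windows, 32 held a DR5 match (0.0974%). The narrower motif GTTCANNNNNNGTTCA, whose matches overlap those of DR5, was found in 25 windows (0.0761%). Windows were given for 7 of the 9 genes, 14 windows in all, and for 44 of 62 other genes of the pathway and marker lists. Among these genes a match was found for Rarb and Cyp26a1. Both stretches are shown because these genes are the readouts of the pathway, with the half-sites in capitals and each read along its gene.
Rarb: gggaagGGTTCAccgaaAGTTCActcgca
Cyp26a1: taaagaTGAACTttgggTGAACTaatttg
In Rarb the repeat lies on the minus strand at chr14:16575513-16575529, 36 bases before the start of the gene. In Cyp26a1, a plus-strand gene, it lies at chr19:37697776-37697792, 15 bases before the start, and the half-sites are on the opposite strand. DR2 and DR1 repeats, with shorter gaps, were found in 0.268% and 0.222% of all windows and in none of those of the 9 genes. A match describes letters and not binding.

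Of the 6 arrays, 2 stood apart. In knockout 2 the median deposited signal was 9, against 51.4 to 95.6 in the other 5 arrays. The control probe sets for the 3′ and 5′ ends of Actb had a ratio of 274 there, against 1.38 to 1.56 elsewhere, and those of Gapdh a ratio of 15.6 against 0.698 to 0.838. In wildtype 1 the summed signal of 11 measured lens genes was 8182, against 140 and 185 in the other wildtype arrays and 121 to 533 in the knockout arrays. Of these 11 genes 10 were highest in wildtype 1 of all arrays, and none was listed at 0 in any array. All 6 measured retinal markers lay above the array's median in every wildtype array, as did 7 of 8 amacrine markers. Fits are therefore given with and without knockout 2, and for the genes followed here, where tested, also without wildtype 1. For the other listed genes no fit without wildtype 1 is given. Because the deposited signals had not been brought to a common level, each array was scaled to the same trimmed mean, and signals below are scaled signals unless stated. The scaling factor was 7.51 for knockout 2 and 0.719 to 1.14 for the other arrays. A high scaled signal in knockout 2 can therefore stand for a low deposited one. Signals of different probe sets cannot be set against each other on this kind of array, so each was read against the median of its own array, which lay between 58.4 and 68.8 after scaling.

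In the wildtype retina 4 of the 13 probe sets exceeded the median of their array in all 3 arrays, against 45.4% of all 22626 probe sets other than controls. They belonged to Aldh1a1, Crabp1, Rxra and Rxrb. Another 3, those of Crabp2 and Rarb and the second one of Rxra, exceeded it in 1 or 2 arrays. The remaining 6 lay below it in all 3 arrays, against 45.5% of all probe sets, and comprised the single Rara probe set, both of Rarg and all 3 of Aldh1a3. The plot of signals by array shows these positions.

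**Figure D1:**
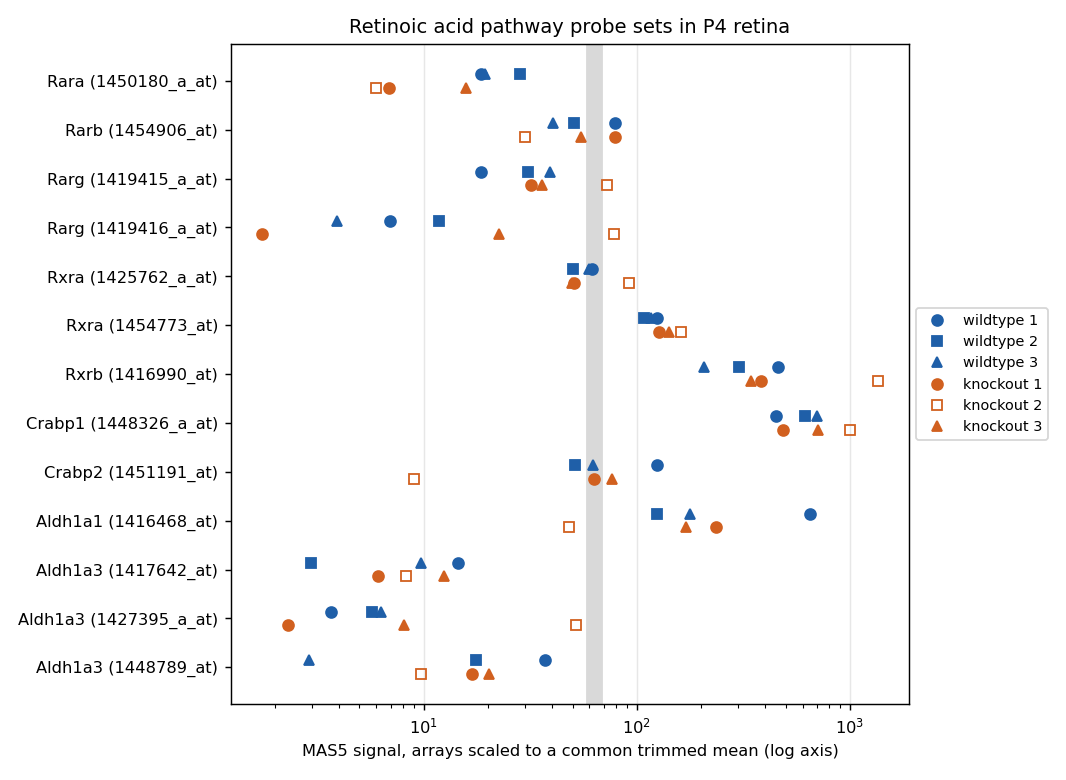
Scaled signal (horizontal log axis) of the 13 probe sets of the 9 genes, 1 point per array. Wildtype is blue, knockout orange, symbols give the littermate pair, the open square is knockout 2, and the grey band spans the array medians (58.4 to 68.8). Rara, Rarg and Aldh1a3 lie left of the band in wildtype, and Aldh1a1 of wildtype 1 stands to the right of all its other arrays. Positions of different probe sets are not comparable with each other.

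Aldh1a1 (probe set 1416468_at), which makes retinoic acid, had the widest spread between wildtype retinas among the 4 probe sets above the median. Its signal was 651 in wildtype 1, 125 in wildtype 2 and 179 in wildtype 3, a mean of 318 ± 289 (SD, n = 3). It was 236, 48.1 and 171 in knockout 1, 2 and 3. Wildtype 1 was thus the highest array of all, wildtype 2 and 3 lay on either side of knockout 3, knockout 1 lay above them both, and the groups overlapped. Within its own array the probe set stood at percentile 90.5 in wildtype 1, and between percentiles 61.7 and 74.99 in wildtype 2, wildtype 3, knockout 1 and knockout 3.

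The excess of Aldh1a1 in wildtype 1 was 3.64-fold over the higher of the other 2 wildtype arrays. It was 4.30-fold on the signals as deposited, 3.40-fold with the arrays scaled to a common 75th percentile and 3.55-fold after quantile normalization. Of 11603 probe sets that passed the filter on low signals, 20 were at least 2-fold higher in wildtype 1 than in both other wildtype arrays (0.172%), and Aldh1a1 was the third of them. Probe sets above the median in wildtype 1 alone could not pass that filter and are outside this share and rank. None of the 11 measured lens genes passed it. Of the 9 genes 5 had a probe set among those 11603, and of these 5 none but Aldh1a1 reached 2-fold, with Crabp2 next at 1.98-fold. Among the probe sets that did not pass, the dim Aldh1a3 probe set 1448789_at was 2.10-fold higher. The 2-fold threshold was chosen after the values were seen. The 2 probe sets ahead of Aldh1a1 both belonged to Gja1, a gap junction protein, which had 4 among the 20. After Gja1 and Aldh1a1 the next by rank were Slc15a2, Sel1l3 and Fgf15. Mitf, a regulator of pigment cell genes, and the basement membrane collagens Col4a2 and Col4a5 were on the same list, and were picked from it by name.

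Lens genes were high in wildtype 1 as well. Cryaa, a lens crystallin, had a signal of 2241 there and 1.24 to 29.3 in the other 5 arrays. Cryab was at 2387 against 7.51 to 61.5, and Cryba1 at 1650 against 1.16 to 41.3. Pigment epithelium markers moved less, their summed signal being 2341 in wildtype 1, 2039 and 1338 in the other wildtype arrays and 1669 to 1864 in the knockout arrays, with 4 of 6 measured markers highest in wildtype 1. How far either tissue contributed to the Aldh1a1 signal was not tested. In these bulk samples more cells that express a gene and more RNA per cell cannot be told apart.

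Aldh1a7, a close relative of Aldh1a1, was not above the median in any array but wildtype 1 and so was not tested. Its signal was 148 in wildtype 1, 10.6 and 11.9 in wildtype 2 and 3, and 15.3, 46.6 and 12.4 in knockout 1, 2 and 3. The excess in wildtype 1 was thus 12.4-fold over the higher of the other wildtype arrays. The sequences of the 2 genes are alike, and signal shared between their probe sets cannot be told apart from separate transcripts. Aldh1a7 was singled out after its values were seen. Aldh1a2, the enzyme of the early embryo and of mesenchyme, lay between 1.04 and 7.49 in all arrays but knockout 2, where it was at 63.9. The deposited signal behind that last value was 8.5, below the array's median of 9.

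**Figure D2:**
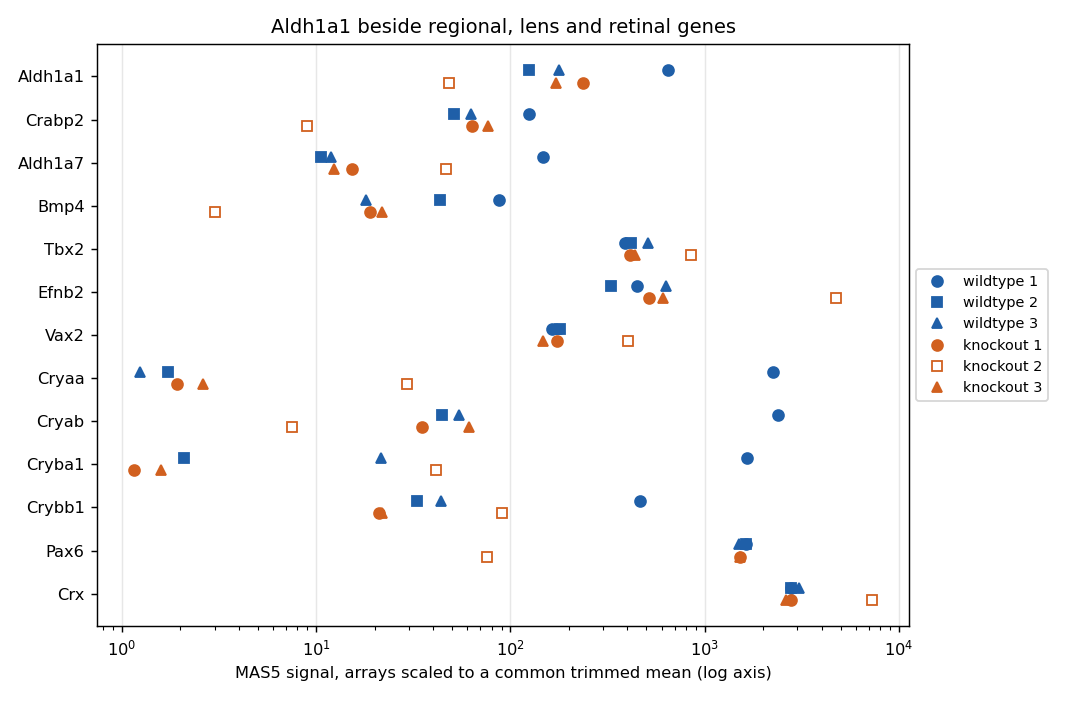
Scaled signal (horizontal log axis) of Aldh1a1, Crabp2, Aldh1a7, dorsal genes (Bmp4, Tbx2, Efnb2), the ventral gene Vax2, lens crystallins and the retinal genes Pax6 and Crx, 1 point per array, with wildtype in blue, knockout in orange and knockout 2 open. Wildtype 1 is the highest array for Aldh1a1, Crabp2, Aldh1a7, Bmp4 and the 4 crystallins, and is not the highest for Tbx2, Efnb2, Vax2 and Crx. For Pax6 it is the highest by a narrow margin (1627 against 1621 in wildtype 2).

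Aldh1a3 was dim on all 3 of its probe sets. Probe set 1417642_at gave 14.5, 2.95 and 9.75 in the wildtype arrays and 6.08, 8.27 and 12.5 in the knockout arrays. Probe sets 1427395_a_at and 1448789_at ranged from 3.67 to 6.33 and from 2.90 to 37.0 in wildtype, and from 2.32 to 51.9 and from 9.77 to 20.2 in knockout. Every value lay below the median of its array, and the groups overlapped on each probe set.

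Crabp1 (1448326_a_at), a cytosolic retinoic acid binding protein, was the only one of the 9 genes above the 75th percentile in all 3 wildtype arrays. It stood at 449.6, 614 and 704 in wildtype 1, 2 and 3, a mean of 589 ± 129 (SD, n = 3). Knockout 1, 2 and 3 gave 486, 998 and 710. Apart from knockout 2, which was highest, the groups covered nearly the same range. As deposited, the signal of knockout 2 was the lowest, at 132.8 against 503.3 to 853.9 in the other arrays. On the scaled signals wildtype 1, the highest array for Aldh1a1, was the lowest for Crabp1.

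Crabp2 (1451191_at), which delivers retinoic acid to its receptors and is itself known to respond to it, lay close to the median. Its signal was 124 in wildtype 1, 51.5 in wildtype 2 and 62.6 in wildtype 3, and 63.1, 9.02 and 76.9 in knockout 1, 2 and 3. As for Aldh1a1, wildtype 1 was the highest of the 6 arrays and knockout 2 the lowest. The remaining 4 arrays lay between 51.5 and 76.9, wildtype 2 and 3 below knockout 1 and 3. Wildtype 3 and knockout 1 were nearly equal there, at 62.6 and 63.1.

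Among the receptors, Rxra, the common partner of the retinoic acid receptors, was the steadiest. Its brighter probe set 1454773_at gave 125, 108 and 117 in wildtype and 128, 161 and 142.5 in knockout, so that every knockout array lay above every wildtype array. Of all probe sets 4.62% were ordered in this way. The lowest knockout array exceeded the highest wildtype array by less than the wildtype SD of 8.48, and the order was lost on the signals as deposited. The second probe set, 1425762_a_at, gave 61.6, 50.4 and 59.8 in wildtype and 50.8, 92.4 and 49.8 in knockout, with no such order.

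Rxrb (1416990_at), another partner receptor, varied more. It was at 458, 303 and 206 in wildtype 1, 2 and 3 and at 383, 1362 and 343 in knockout 1, 2 and 3. Knockout 2 was by far the highest, and the other 2 knockout arrays lay inside the wildtype range. On the signals as deposited knockout 2 was instead the lowest array, at 181.2 against 198.5 to 524.9 in the others.

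Rarb (1454906_at), the receptor gene whose promoter carries the repeat shown above, gave 79.0, 50.6 and 40.3 in wildtype and 79.4, 30.1 and 54.7 in knockout. Both arrays of pair 1 were above the median of their array and the other 4 were below it. Cyp26a1, with the other repeat, gave 186, 247 and 225 in wildtype and 279, 90.2 and 211 in knockout. Wildtype 1 was the highest wildtype array for Rarb and the lowest for Cyp26a1, and the groups overlapped for both.

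Rara (1450180_a_at) was dim in every array, below the median in all 6. Its signal was 18.5, 28.3 and 19.5 in wildtype 1, 2 and 3 and 6.85, 6.01 and 15.8 in knockout 1, 2 and 3. Every knockout array was below every wildtype array, an order shared by 3.07% of all probe sets. The probe set did not pass the filter, and a fit of all 22626 probe sets without the filter gave a log2 difference of -1.22 ± 0.49 (SE) for Rara, with an unadjusted p of 0.0427 and an adjusted p of 0.835 in limma. Unadjusted p-values under 0.05 were found for 2.4% of probe sets in that fit. Without knockout 2 the difference was -0.98 with an unadjusted p of 0.0656 in limma.

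Rarg was dim as well. Probe set 1419415_a_at gave 18.7, 30.9 and 39.0 in wildtype and 32.1, 72.9 and 35.8 in knockout, where knockout 2 was the single array above its median. Probe set 1419416_a_at gave 6.99, 11.9 and 3.94 in wildtype and 1.74, 78.2 and 22.6 in knockout. The 2 probe sets moved in opposite directions in pair 1 and in pair 3.

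The comparison of the genotypes asks which genes differ in the retina that lacks Nhlh2, a helix-loop-helix transcription factor. None of the 11603 probe sets tested passed an adjusted p of 0.05 in limma (0% called), with or without knockout 2 (0% in each), and 11 (0.0948%) had an unadjusted p under 0.05 with all 6 arrays and 84 (0.724%) without knockout 2. The 5 probe sets of the pathway that passed the filter had no unadjusted p under 0.05 in either fit. The median difference of all tested probe sets was -0.19 on the log2 scale with all arrays, -0.01 without knockout 2 and -1.38 on the signals as deposited, and single differences are to be read against it.

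With all 6 arrays the largest fitted differences were those of Crabp2, at -1.02 ± 0.85 (SE, log2), and of Aldh1a1, at -0.96 ± 0.84, each with an adjusted p of 0.75 in limma. Rxrb was at 0.88 ± 0.63, Rxra at 0.30 ± 0.28 and Crabp1 at 0.27 ± 0.39, and the sign of these 3 turned to negative on the signals as deposited. Each of these values moved towards 0 when knockout 2 was left out. Without it Crabp2 was at -0.08, Aldh1a1 at -0.28, Rxrb at 0.25, Rxra at 0.22 and Crabp1 at 0.02, each with an adjusted p of 0.999 in limma. The 95% intervals were then -0.23 to 0.66 for Rxra and -0.65 to 0.69 for Crabp1, but -1.91 to 1.36 for Aldh1a1. In that fit a change of 2-fold in either direction lies within the interval of Aldh1a1 and outside those of Rxra and Crabp1. With all 6 arrays the intervals were -0.37 to 0.97 for Rxra and -0.66 to 1.21 for Crabp1, the latter including a 2-fold rise.

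**Figure D3:**
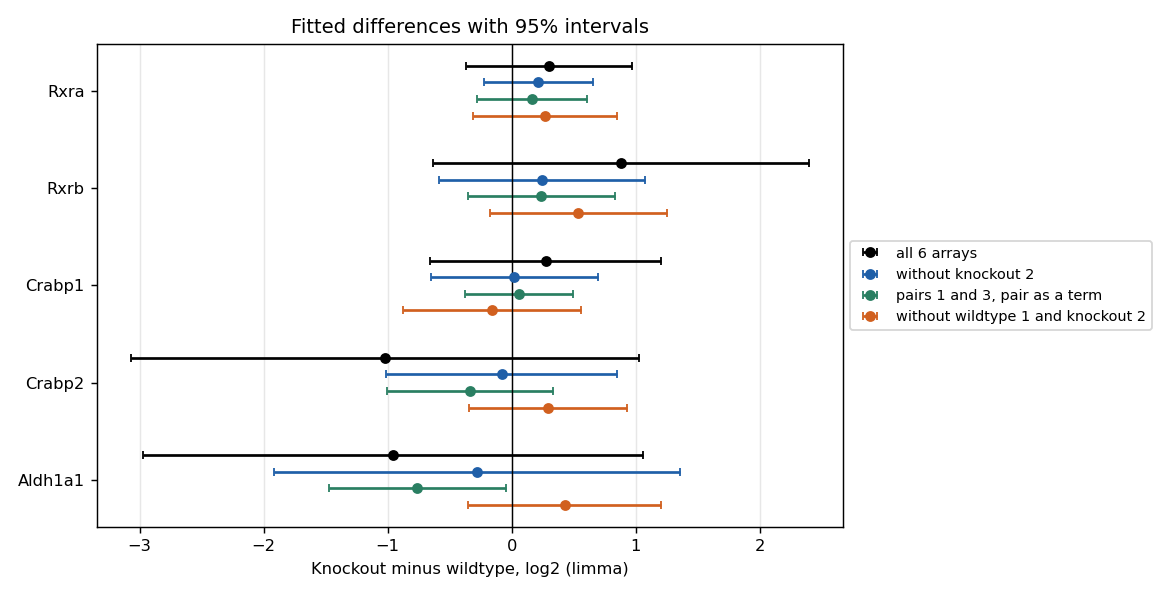
Knockout minus wildtype difference on the log2 scale (horizontal axis) for the 5 probe sets that passed the filter, with 95% intervals from limma, in 4 fits. Rxra runs from 0.16 to 0.30, while Aldh1a1 runs from -0.96 with all arrays to 0.43 without wildtype 1 and knockout 2.

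The Aldh1a1 difference depended on wildtype 1 and on knockout 2, being -0.25 without the first and -0.28 without the second. With the littermate pair as a term and pairs 1 and 3 only, its difference was -0.76 ± 0.31 (SE, log2; 95% interval -1.47 to -0.05), with an unadjusted p of 0.0390 and an adjusted p of 0.999 in limma, in a fit where 3.72% of all tested probe sets had an unadjusted p under 0.05. The 2 pairs it rests on differed in size: knockout minus wildtype was -1.46 in pair 1, which holds wildtype 1, and -0.06 in pair 3. Without wildtype 1 and knockout 2 the difference was 0.43 ± 0.31 with an adjusted p of 0.9999 in limma, a turn of sign. Crabp2 was at -0.65 without wildtype 1, at -0.08 without knockout 2 and at 0.29 without both.

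The direction within littermate pairs was read from pairs 1 and 3. Of the 5 tested probe sets, Rxra and Crabp1 were higher in the knockout in both pair 1 and pair 3, Aldh1a1 was lower in both, and Rxrb and Crabp2 went opposite ways. Among all tested probe sets 24.8% were higher in both, 23.4% lower in both and 51.8% opposite. For Crabp1 the differences were 0.11 and 0.01 on the log2 scale, and for Rxra 0.04 and 0.29. Counting dim probe sets too, 3 of 13 were higher in both pairs, 3 were lower in both, namely those of Rara, Aldh1a1 and the second one of Rxra, and 7 were opposite. The shares above cover tested probe sets only, and none was computed with dim probe sets included, so this count is a description.

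**Figure D4:**
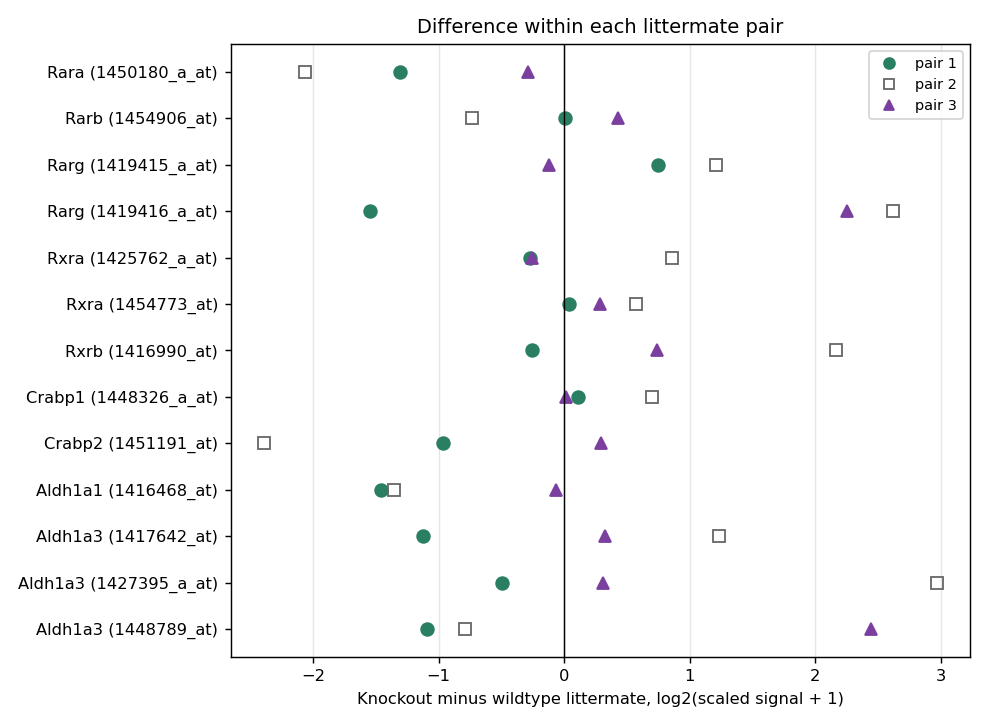
Knockout minus wildtype littermate difference in log2(scaled signal + 1) (horizontal axis) for each of the 13 probe sets, 1 point per pair. Pair 2, with knockout 2, is drawn open, and the differences of the Aldh1a3 probe sets and of Rarg 1419416_a_at, which rest on dim signals, spread from -1.54 to 2.97.

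Other genes of the route were taken from lists by role, and no gene of any list passed the adjusted threshold in either direction. Of 7 genes for the uptake, carriage and storage of retinol, 6 were measured and 1 was tested, namely Ttr, the transthyretin that carries retinol-binding protein. Ttr gave 2732, 2972 and 4498 in wildtype and 2229, 6855 and 4430 in knockout. The retinol receptor Stra6 and the storage enzyme Lrat were dim, at 26.8 to 34.2 and 1.51 to 7.86 in wildtype.

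Enzymes that interconvert retinol and retinaldehyde were more fully represented, with 11 of 13 measured and 8 tested. Rdh10, known as the main retinol dehydrogenase of the embryo, gave 717, 674 and 570 in wildtype and 768, 147 and 650 in knockout. Rdh11 gave 366, 398 and 322 in wildtype and 350, 54.1 and 334 in knockout, and Rdh14 gave 249, 319 and 293 in wildtype and 346, 15.0 and 248 in knockout. In each of these 3 the single low array was knockout 2. Rdh13 did not show this, with 102, 118 and 177 in wildtype and 95.5, 174 and 132 in knockout. The median difference of the 8 tested genes was -0.46 with all arrays and 0.00 without knockout 2, beside -0.19 and -0.01 for all tested probe sets.

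Of the partners of the pathway's receptors, Rxrg, a retinoid X receptor gene, gave 156, 141 and 121 in wildtype and 118, 189 and 127 in knockout, and the groups overlapped. Fabp5, a fatty acid binding protein that can also carry retinoic acid, gave 2827, 2940 and 5368 in wildtype and 2895, 9353 and 3349 in knockout. Of 10 receptor corepressors and coactivators, 7 were measured and 5 tested, with a median difference of -0.09 without knockout 2. The corepressor Nrip1 was at -0.19 ± 0.40 (SE, log2) with all arrays, and the coactivators Ncoa1, Ncoa6 and Med1 at -0.01 ± 0.32, -0.74 ± 0.59 and 0.31 ± 0.74, with adjusted p-values of 0.75 to 0.993 in limma.

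Genes known to respond to retinoic acid gave 14 measured of 16 and 7 tested, the list including Rarb and Crabp2 themselves. Their median difference was -0.59 with all arrays and -0.05 without knockout 2. Meis2, a homeobox gene, was at 103 in knockout 2, against 1264, 1410 and 1528 in wildtype and 1099.5 and 1654 in knockout 1 and 3. The related Meis1 and the orphan receptor Nr2f1 were likewise lowest in knockout 2, at 104 and 146, and without it their differences were -0.04 ± 0.22 and -0.11 ± 0.25 (SE, log2).

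Since Aldh1a1 and Aldh1a3 mark opposite poles of the embryonic retina, genes of the dorsal and ventral retina were read beside them. All 6 dorsal genes were measured and 4 were tested, Tbx2, Tbx3, Efnb1 and Efnb2. Tbx2, a dorsal transcription factor, gave 387, 419 and 512 in wildtype, and Efnb2, a dorsal guidance ligand, gave 450, 330 and 633. In neither, nor in Tbx3 and Efnb1, was wildtype 1 the highest wildtype array. Bmp4, the dorsal signal, was the exception among the 6 at 87.5, 43.5 and 18.2 in wildtype and 19.02, 3.01 and 21.8 in knockout, and it was named here after its values were seen. Of 7 ventral genes 5 were measured and 2 tested, Vax2 at 165, 179 and 174 and Ephb3 at 111, 133 and 111 in wildtype, values that differed little between the 3 retinas.

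The genes whose pattern over the 5 arrays other than knockout 2 came closest to that of each brighter member were found among 12393 other genes by the root mean square of the difference in centred log2 signal. Rxra was followed most closely by Eif1ax (0.029), Acp1 (0.030) and Ppdpf (0.031), Rxrb by Plek (0.045), Plk1 (0.046) and Mis12 (0.056), and Crabp1 by Rasa4 (0.037), Noa1 (0.040) and Phf21a (0.054). Aldh1a1 had no match as close, its nearest being Ang3, Nlrp3 and Lyzl4 (0.148 to 0.151), whose deposited signals did not exceed 13.1 in any of these arrays. With 5 arrays and this many genes, close matches are a description of these arrays.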

How the data were processed

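Retinas of 3 wildtype and 3 Nhlh2 knockout mice were compared on 6 arrays. The authors deposited 1 intensity per probe set, computed with MAS5 as the submitters' notes name it, on a linear scale and with no scaling between arrays (medians 9 to 95.6). The scaling target and present calls are not given in the sources used here. Of 22690 probe sets, 64 were controls, 20393 carried 1 gene symbol in the probe table and 691 carried several, which were left out of the gene lists. Precision is limited by the small number of arrays.

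Each array was scaled to a common 2% trimmed mean (192.904), 1 was added and log2 was taken. A probe set was tested if 3 or more of its 6 signals exceeded the median of their arrays, with limma 3.58.1 in R 4.3.3 (lmFit and eBayes), p-values being adjusted by the Benjamini-Hochberg method over all 11603. The procedure was checked on simulated data. The simulated arrays all had the same spread, and none stood apart as knockout 2 and wildtype 1 did. Fold changes on log2(signal + 1) understate those of dim probe sets. Members and lists were chosen with earlier results of these data known. All 9 genes were named with every probe set. Of each other list the genes called and up to 4 more were named, the first in list order whose brightest probe set was above the median in all wildtype arrays, and each of the brighter members was given its 3 nearest genes. Stra6, Lrat, Aldh1a2, Aldh1a7, Bmp4, Gja1, Slc15a2, Sel1l3, Fgf15, Mitf, Col4a2, Col4a5, Pax6 and the markers were named outside this rule, with their values seen.

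The series design gives same-numbered arrays as littermates. Deviations from the group means correlated at 0.29, -0.14 and 0.18 in pairs 1, 2 and 3 across probe sets. They correlated at 0.38 between wildtype 2 and knockout 1, which are not littermates. With knockout 2 left out the values were 0.49 in pair 1, 0.73 in pair 3 and 0.64 between wildtype 2 and knockout 1. Knockout 2 weighs on the group mean in the first run, and without it the deviations of knockout 1 and 3 mirror each other. The arrays themselves therefore cannot decide the pairing. The pair was a term in alternative fits. Other alternatives were the scaling (none, 75th percentile, quantile), an added constant of 16, no filter or a stricter one, an intensity trend, array weights (whose estimation stopped before convergence) and leaving out arrays. Fits without wildtype 1 and knockout 2 together, without the filter and knockout 2, and with pairs 1 and 3 at a common 75th percentile were chosen after seeing the data. Nhlh2, Rdh8, Dhrs9, Cyp26b1, Cyp26c1, Ncor1, Ep300, Ephb2, Pax2 and some other listed genes were not analysed here.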

Additional observations from a re-analysis of the deposited data

How the results depend on the processing

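No member and no other probe set passed an adjusted p of 0.05 in any alternative run (0 called in each), also with the replicate block for the littermate pair (0 called), which changed no call, and with each array left out in turn (0 called in each). Unadjusted p-values under 0.05 numbered 11 with all arrays, 13 with the pair as a block, 1126 with array weights and 3 on the signals as deposited. The 4 probe sets above the median in all wildtype arrays became 9 above the 25th percentile and 1 above the 75th, and 4 to 5 with 1 wildtype array left out. On the signals as deposited, where knockout 2 was not brought to the level of the other arrays, Rxra was at -0.90, Rxrb at -0.34 and Crabp1 at -0.94 (log2) instead of above 0. Without wildtype 1 and knockout 2, Crabp1 was at -0.16, Crabp2 at 0.29 and Aldh1a1 at 0.43, each of opposite sign to the fit of all arrays. The cause was not tested. With 1 array left out in turn, Rxra ran from 0.22 to 0.38, Rxrb from 0.25 to 1.24, Crabp1 from 0.02 to 0.54, Crabp2 from -1.56 to -0.08 and Aldh1a1 from -1.44 to -0.25, the value nearest 0 coming without knockout 2 except for Aldh1a1, where it came without wildtype 1. The other 87 values of the 5 tested probe sets under alternatives kept their direction. With 3 arrays per group and 1 of them of low signal, differences such as those of Aldh1a1 were not detectable here, and for probe sets below the median a difference may lie in the background.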
